A study of Homo sapiens with 12 samples.

Results

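The 10 genes described here make, sulfate or trim glycosaminoglycans, and they were followed in EndoC-βH1, an immortalised human beta-cell line derived from fetal pancreas that makes insulin. They are the extracellular sulfatase genes SULF1 and SULF2, the chondroitin sulfate genes CSGALNACT1 and CSGALNACT2, the heparan sulfate initiation and polymerase genes EXTL3, EXT1 and EXT2, and the heparan sulfate modifying genes NDST1, HS2ST1 and HS6ST1. They were taken by name, through their Entrez Gene IDs, as 10 of the 21508 genes listed in at least 1 library, chosen by the higher SULF2 and CSGALNACT1 values with 1-AKP in these same libraries. The values in 1-AKP against DMSO are therefore given as a description, with no test.

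Every culture was transfected and then treated, so no group is untouched cells. The 4 groups of 3 libraries were cells given TUNAR siRNAs and then 1-AKP at 5 µM for 24 hours, cells given negative siRNA and then 1-AKP, cells given TUNAR siRNAs and then the solvent DMSO at 1:1000 for 24 hours, and cells given negative siRNA and then DMSO. TUNAR is a long noncoding RNA, 1-AKP is described by the submitters as a GSK3 inhibitor, and treatment began 2 days after transfection. Replicates 1 and 2 of each group were cells of passage 74 and replicate 3 of passage 75. The labels do not name the number of TUNAR siRNAs used. Replicate 3 was of another passage, but whether replicates 1 and 2 were separate cultures is not said. The p-values here therefore speak only of the spread among these libraries of 1 cell line, part of which may be technical.

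Glycosaminoglycans are long sugar chains carried by proteoglycans at the cell surface and in the matrix. After a shared linkage sugar sequence, EXTL3 starts a heparan sulfate chain and the EXT1 and EXT2 complex extends it, while CSGALNACT1 and CSGALNACT2 start chondroitin sulfate chains on the same linkage. NDST1, HS2ST1 and HS6ST1 place N-, 2-O- and 6-O-sulfate on the growing heparan sulfate chain in the Golgi. SULF1 and SULF2 act outside the cell and remove 6-O-sulfate from finished chains, which changes how the chains bind Wnt proteins and growth factors. Beta cells of human and mouse islets are known to hold heparan sulfate.

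The sequence in front of the gene with the widest range, SULF2, is shown because GSK3 inhibitors are known to stabilise β-catenin, the partner of TCF/LEF factors. RefSeq on GRCh38.p14, which is not the build of the deposited tables, gave windows for 6 of the 10 genes and 4 start sites for SULF2 on the minus strand. The 6 are SULF2, CSGALNACT2, EXT2, HS2ST1, HS6ST1 and NDST1, so CSGALNACT1 could not be searched. The 250 bases before the most upstream SULF2 start (chr20:47786628-47786877) and before its start within a stretch of 81.2% G and C (chr20:47785482-47785731) read as follows, 5′ to 3′, with the GC box GGGCGG in capitals.
SULF2 upstream start: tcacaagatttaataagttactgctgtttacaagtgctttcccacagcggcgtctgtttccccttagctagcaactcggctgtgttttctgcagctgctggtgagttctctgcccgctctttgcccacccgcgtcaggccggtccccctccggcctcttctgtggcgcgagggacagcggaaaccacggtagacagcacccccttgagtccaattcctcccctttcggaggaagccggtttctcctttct
SULF2 GC-rich start: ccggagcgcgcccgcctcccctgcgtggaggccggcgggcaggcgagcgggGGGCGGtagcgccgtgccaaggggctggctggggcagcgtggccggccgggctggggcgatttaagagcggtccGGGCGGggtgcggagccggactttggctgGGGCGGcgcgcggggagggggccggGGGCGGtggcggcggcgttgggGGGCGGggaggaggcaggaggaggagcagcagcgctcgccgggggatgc
The first window holds 0 GC boxes and the second holds 5, which begin 199, 125, 96, 71 and 49 bases before the start site. A GC box was read on both strands and is present in 42.6% of the 35116 RefSeq windows of this length. TCF/LEF letters were searched on both strands as CTTTGAA, as the variant CTTTGAT, as the variant CTTTGTA and as the variant CTTTGTT. They had 0 matches in the 4 windows of SULF2 and in the 11 windows of the 6 genes, while 11.96% of all windows hold at least 1. The EXT2 windows that begin at chr11:44095947 and chr11:44095948 are nearly the same sequence. These matches describe letters in the windows only.

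All 10 genes were listed in all 12 libraries, and all 10 passed the filter on low counts. Levels between genes are compared in FPKM, which is scaled by transcript length. EXT2 averaged 38.0 FPKM over the 12 libraries, HS6ST1 34.0, HS2ST1 19.0, NDST1 16.5 and EXTL3 10.6. EXT1 averaged 6.18 FPKM, CSGALNACT2 5.37, SULF1 3.29, SULF2 3.01 and CSGALNACT1 0.653. Neighbours in this order did not overlap in any group for HS6ST1 and HS2ST1, NDST1 and EXTL3, EXTL3 and EXT1, and CSGALNACT2 and SULF1. SULF1 and SULF2 overlapped in 3 of the 4 groups, and the other neighbouring pairs overlapped in 1 or 2 of them. The genes also differed in how steady they were: the highest FPKM of the 12 libraries was 12.2 times the lowest for SULF2, 3.93 times for CSGALNACT1 and 3.19 times for SULF1, and between 1.11 times (EXTL3) and 1.46 times (EXT1) for the other 7.

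**Figure D1:**
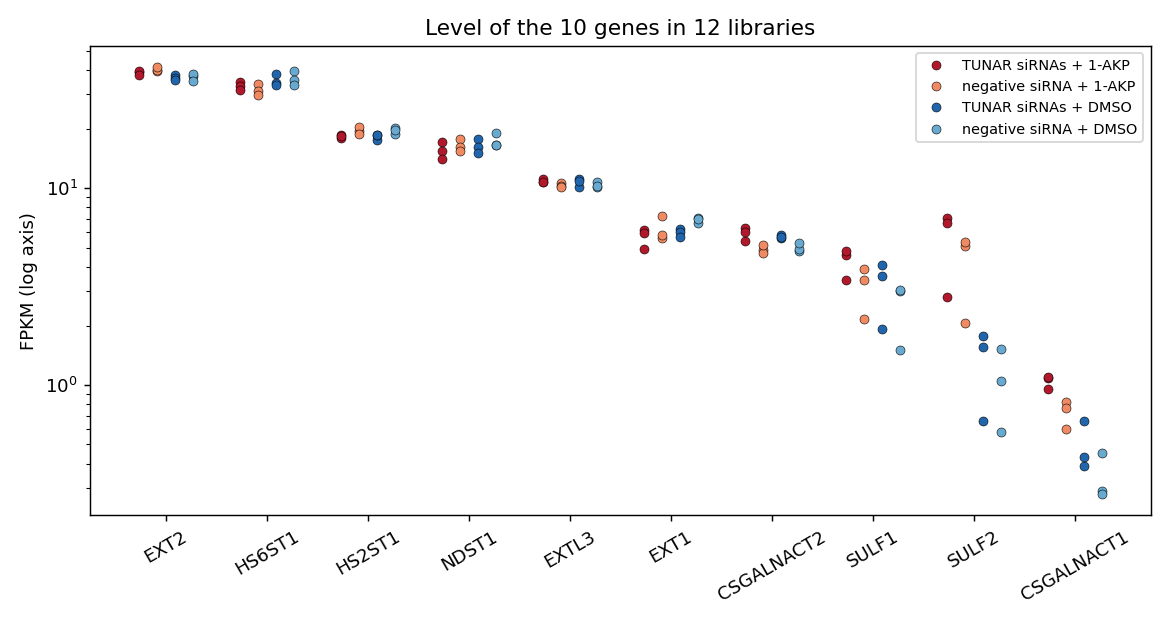
FPKM of each gene (log axis) in the 12 libraries, coloured by group, with genes ordered by their mean over the libraries. SULF2 runs between 0.58 and 7.07 FPKM, while EXT2 stays between 35.1 and 41.2.

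SULF2, the extracellular 6-O-endosulfatase that chose this set together with CSGALNACT1, had 2.80, 7.07 and 6.65 FPKM in replicates 1, 2 and 3 with TUNAR siRNAs and 1-AKP, and 2.07, 5.10 and 5.31 FPKM with negative siRNA and 1-AKP. It had 0.66, 1.77 and 1.57 FPKM with TUNAR siRNAs and DMSO, and 0.58, 1.05 and 1.52 FPKM with negative siRNA and DMSO. Every 1-AKP library was above every DMSO library, with 2.07 FPKM the lowest of the first and 1.77 FPKM the highest of the second. Within a replicate number the 1-AKP library held between 3.99 and 4.24 times the DMSO level with TUNAR siRNAs, and between 3.49 and 4.86 times with negative siRNA. The fitted log2 fold changes, given as a description, were 2.07 with TUNAR siRNAs (SE 0.508) and 2.00 with negative siRNA (SE 0.530). These are amounts of RNA in bulk cultures, in which more cells of a type and more RNA per cell cannot be told apart.

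The same gene was low in replicate 1 of every group. Relative to replicate 1 and across the groups, SULF2 stood 1.29 higher on the log2 scale in replicate 2 and 1.31 higher in replicate 3. SULF1 shifted likewise, by 0.71 and 0.83, and CSGALNACT1 by 0.37 and 0.31, whereas NDST1 was lower by log2 differences of -0.15 and -0.22, HS6ST1 by -0.12 and -0.18, and EXT1 by -0.20 and -0.12. Replicate 1 libraries also had a higher summed level of 4 markers of other islet cells, GCG, SST, PPY and GHRL. The sum was 44.2 to 53.4 FPKM there, 6.11 to 7.39 in replicate 2 and 7.72 to 10.4 in replicate 3, with PPY at 0 in every group. SST alone of the 4 passed the filter on low counts, at 28.1 to 33.5 CPM in replicate 1 and 3.80 to 6.52 CPM in the other replicates. Each group has 1 library of replicate 1, and the part of these libraries in the results was not tested. Without replicate 1 the log2 fold change of SULF2 with 1-AKP was 2.06 (SE 0.123) with TUNAR siRNAs and 2.03 (SE 0.134) with negative siRNA.

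SULF1, the other endosulfatase of the pair, had 3.44, 4.57 and 4.81 FPKM with TUNAR siRNAs and 1-AKP, and 2.18, 3.41 and 3.88 FPKM with negative siRNA and 1-AKP. In DMSO it had 1.92, 3.59 and 4.09 FPKM with TUNAR siRNAs and 1.51, 3.00 and 3.03 FPKM with negative siRNA. The 1-AKP and DMSO libraries overlapped with either siRNA, and the fitted log2 fold changes with 1-AKP were 0.43 (SE 0.328) and 0.35 (SE 0.340) with TUNAR siRNAs and negative siRNA. By replicate number SULF1 in 1-AKP was 1.18 to 1.79 times its DMSO level with TUNAR siRNAs, and 1.14 to 1.44 times with negative siRNA. Without replicate 1 its log2 fold changes were 0.30 (SE 0.092) and 0.29 (SE 0.098) with the same siRNAs, again a description. The order of the sulfatases differed between the treatments: SULF2 was above SULF1 in 4 of 6 libraries with 1-AKP, those of replicates 2 and 3, and in 0 of 6 with DMSO. The SULF2 to SULF1 ratio of FPKM was 0.814 to 1.55 with TUNAR siRNAs and 1-AKP and 0.950 to 1.496 with negative siRNA and 1-AKP, against 0.344 to 0.493 with TUNAR siRNAs and DMSO and 0.350 to 0.502 with negative siRNA and DMSO. Their sum was 6.24 to 11.6 FPKM with TUNAR siRNAs and 1-AKP and 4.25 to 9.19 FPKM with negative siRNA and 1-AKP. It was 2.58 to 5.66 FPKM with TUNAR siRNAs and DMSO and 2.09 to 4.55 FPKM with negative siRNA and DMSO, so with negative siRNA the summed levels overlapped between 1-AKP and DMSO. Fibroblast and stellate cells also express these sulfatases, and 6 markers of those cells summed to 0.51 to 1.24 FPKM over the 1-AKP libraries and 0.68 to 1.37 FPKM over the DMSO libraries, with LUM at 0 in every library. Other lists stood higher: 4 duct and acinar markers summed to 48.9 to 64.7 FPKM over the libraries, with PRSS1 at 0 in every library. Among them KRT19 had 48.7 to 68.0 CPM and CPA1 20.5 to 33.0 CPM. The 5 endothelial and blood cell markers summed to 12.2 to 29.5 FPKM. CD68 was the highest of these, at 20.8 to 53.7 CPM, with PECAM1 at 2.5 to 3.8 CPM and PTPRC at 0.50 to 1.25 CPM. VWF and CDH5 were listed in only 2 and 1 of the 12 libraries. The 8 beta-cell markers summed to at least 21140 FPKM in every library. INS, the insulin gene, had log2 fold changes of 0.02 and 0.03 with 1-AKP and TUNAR siRNAs or negative siRNA. With the same siRNAs, NKX6-1, a beta-cell transcription factor, fell by 0.48 and 0.52 on the log2 scale (edgeR adjusted p = 0.00254 and 0.00159). IAPP, the islet amyloid peptide, stood at -0.80 with both, past the threshold with negative siRNA only (edgeR adjusted p = 0.0529 and 0.0494), and the difference between the siRNAs was 0.01 (SE 0.306, edgeR adjusted p = 1). G6PC2, an islet glucose-6-phosphatase subunit, stood at 2.20 and 2.43 with overlapping libraries, not past the threshold (edgeR adjusted p = 0.213 and 0.176). The other 4 were not called, and the part of these markers in the sulfatase values was not tested.

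**Figure D2:**
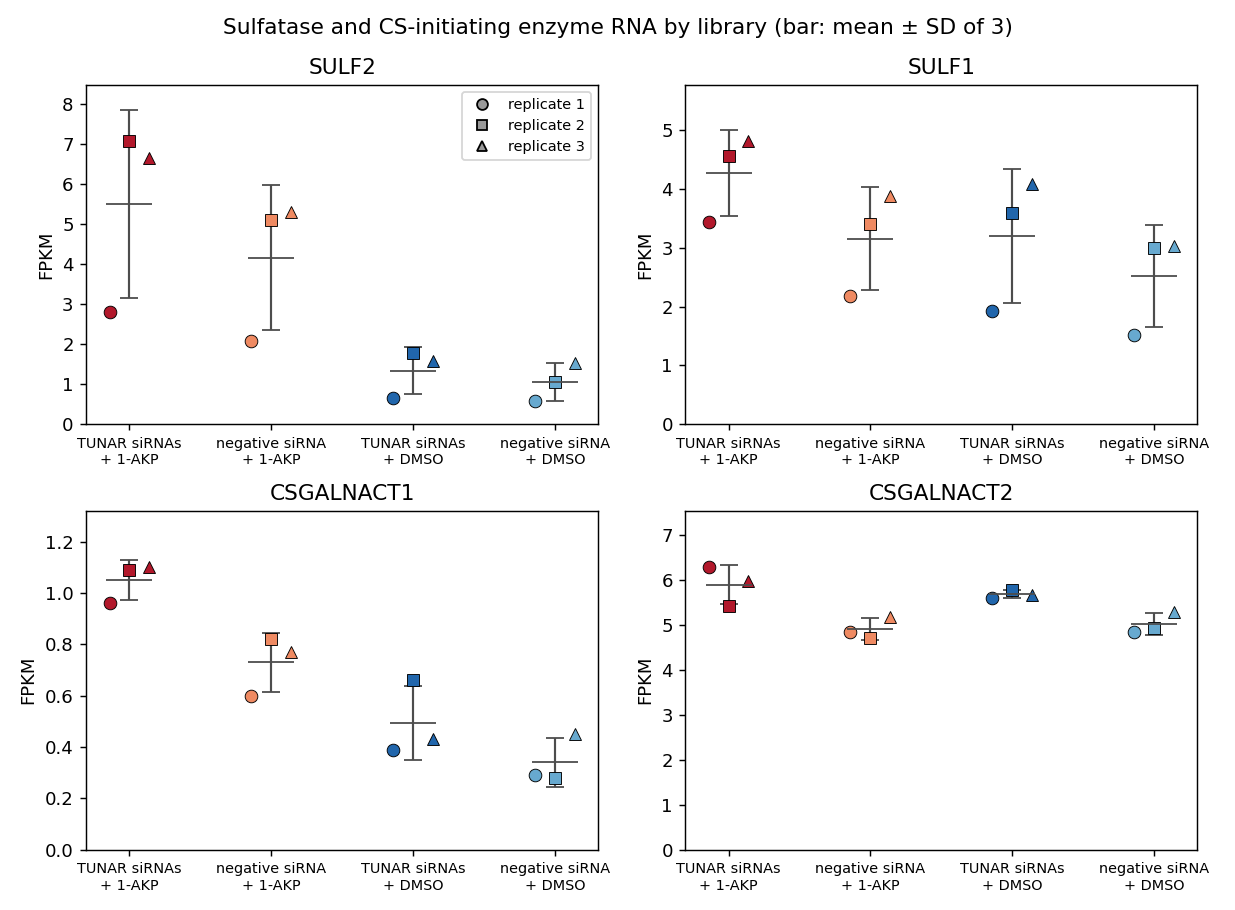
FPKM of SULF2, SULF1, CSGALNACT1 and CSGALNACT2 in each library (points, shape by replicate number) with the mean and SD of the 3 libraries of a group (bars). SULF2 and CSGALNACT1 are highest with 1-AKP, and the replicate 1 library is the lowest of its group for SULF2 and SULF1 in all 4 groups.

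CSGALNACT1, which adds the first N-acetylgalactosamine of a chondroitin sulfate chain, had the lowest level of the 10 genes, at 18.1 to 71.5 expected counts per library. It had 0.96, 1.09 and 1.10 FPKM with TUNAR siRNAs and 1-AKP, and 0.60, 0.82 and 0.77 FPKM with negative siRNA and 1-AKP. In DMSO it had 0.39, 0.66 and 0.43 FPKM with TUNAR siRNAs and 0.29, 0.28 and 0.45 FPKM with negative siRNA. The 1-AKP libraries did not overlap with the DMSO libraries of the same siRNA, though the lowest with negative siRNA and 1-AKP was below the highest with TUNAR siRNAs and DMSO. The fitted log2 fold change with 1-AKP was 1.09 (SE 0.223) with TUNAR siRNAs and 1.15 (SE 0.243) with negative siRNA, again a description. CSGALNACT2, its close relative with the same first step, stood much higher and moved little, at 5.89 ± 0.436 and 4.91 ± 0.247 FPKM in 1-AKP with TUNAR siRNAs and negative siRNA, and at 5.68 ± 0.0862 and 5.02 ± 0.242 FPKM in DMSO with the same siRNAs (SD, n = 3 each). The CSGALNACT1 to CSGALNACT2 ratio of FPKM was 0.153 to 0.201 with TUNAR siRNAs and 1-AKP and 0.124 to 0.175 with negative siRNA and 1-AKP, against 0.0696 to 0.114 with TUNAR siRNAs and DMSO and 0.0568 to 0.0851 with negative siRNA and DMSO. Some CSGALNACT1 counts are not whole numbers, so reads were shared with other loci and its level is uncertain to that extent.

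Among the heparan sulfate chain builders, EXT2 was the steadier and higher partner of EXT1. EXT2 had 38.8, 39.4 and 37.5 FPKM with TUNAR siRNAs and 1-AKP, and 39.4, 39.9 and 41.2 FPKM with negative siRNA and 1-AKP. In DMSO it had 37.6, 36.4 and 35.4 FPKM with TUNAR siRNAs and 37.1, 38.1 and 35.1 FPKM with negative siRNA. In CPM the 1-AKP libraries were above the DMSO libraries of the same siRNA (in FPKM the lowest with TUNAR siRNAs and 1-AKP, 37.50, was just under the highest with DMSO, 37.56), by a log2 fold change of 0.10 (SE 0.045) and 0.15 (SE 0.045) with TUNAR siRNAs and negative siRNA. EXT1, its partner, had 5.68 ± 0.645 and 6.20 ± 0.865 FPKM in 1-AKP with TUNAR siRNAs and negative siRNA, and 5.95 ± 0.265 and 6.89 ± 0.235 FPKM in DMSO. EXTL3, which commits the linkage to heparan sulfate, was the steadiest of the 10, at 10.9 ± 0.235 and 10.3 ± 0.248 FPKM in 1-AKP and 10.7 ± 0.487 and 10.4 ± 0.327 FPKM in DMSO with the same siRNAs (SD, n = 3 each).

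The 3 sulfotransferases of the set had overlapping libraries with 1-AKP and DMSO. NDST1, the N-deacetylase and N-sulfotransferase, had 15.6 ± 1.47 and 16.6 ± 1.196 FPKM in 1-AKP with TUNAR siRNAs and negative siRNA, and 16.4 ± 1.33 and 17.4 ± 1.44 FPKM in DMSO. HS6ST1, a 6-O-sulfotransferase that places the group the sulfatases remove, had 34.8, 32.9 and 31.4 FPKM with TUNAR siRNAs and 1-AKP, and 33.7, 31.2 and 29.8 FPKM with negative siRNA and 1-AKP. It had 38.0, 34.2 and 33.5 FPKM with TUNAR siRNAs and DMSO, and 39.3, 35.3 and 33.7 FPKM with negative siRNA and DMSO. Its groups overlapped, and the log2 fold changes with 1-AKP were -0.08 (SE 0.069) and -0.17 (SE 0.069) with TUNAR siRNAs and negative siRNA. By replicate number HS6ST1 in 1-AKP was 0.915 to 0.964 times its DMSO level with TUNAR siRNAs, and 0.858 to 0.884 times with negative siRNA. HS6ST1 counts are not whole, so part of its reads were shared with other loci. HS2ST1, the 2-O-sulfotransferase, had log2 fold changes with 1-AKP of 0.04 (SE 0.042) and 0.03 (SE 0.042) with the same siRNAs. The labels give no strand marking for the library protocol, so reads of NDST1 and EXTL3 may include reads of their antisense genes.

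The 2 of 10 genes past the all-gene edgeR threshold with 1-AKP are SULF2 and CSGALNACT1, the genes that chose the set. That count was fixed by the choice and tests nothing. Of all genes tested at an adjusted p of 0.05, 3.72% were higher and 3.79% lower with TUNAR siRNAs (7.51% in either direction), and 3.54% were higher and 3.76% lower with negative siRNA (7.3%). By libraries that did not overlap in CPM, 3 of the 10 were higher with 1-AKP and 0 lower with either siRNA, EXT2 being the third. The same held for 12.1% and 12% of all genes, higher and lower, with TUNAR siRNAs and for 13.4% and 12.5% with negative siRNA. The median log2 fold change of the 10 was 0.05 with TUNAR siRNAs and 0.02 with negative siRNA, beside 0.00 over all genes.

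The siRNA comparisons are measures the choice of genes did not rest on, although the negative siRNA libraries are shared with the 1-AKP comparison. They ask what a partial lowering of TUNAR RNA goes with. TUNAR itself averaged 10.3 ± 3.32 CPM with its siRNAs and 29.9 ± 1.69 CPM with negative siRNA in 1-AKP, and 6.37 ± 2.24 CPM and 17.3 ± 2.76 CPM in DMSO (SD, n = 3 each), a log2 fold change of -1.49 as the mean of both treatments (SE 0.180, edgeR adjusted p = 0.0101, and 3.87e-05 with replicate numbers as a block). Taken one treatment at a time without the block, TUNAR was not past the threshold (edgeR adjusted p = 0.159 in 1-AKP and 0.248 in DMSO). With the block it was (adjusted p = 0.000674 and 0.00248). In the siRNA comparisons the deviations of same-numbered libraries from their group means correlated at 0.162 to 0.416. Each result is therefore given without and with the number as a block.

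With the block, 7 of the 10 genes changed with TUNAR siRNAs when both treatments were averaged, 4 higher and 3 lower, against 4.4% higher and 4.18% lower of all genes tested. Both sulfatases and both chondroitin initiators were the ones that rose. SULF1 rose by 0.40 on the log2 scale (SE 0.065, edgeR block adjusted p = 9.08e-05) and SULF2 by 0.37 (SE 0.081, adjusted p = 0.00201). CSGALNACT2 rose by 0.23 (SE 0.051, adjusted p = 0.00272) and CSGALNACT1 by 0.55 (SE 0.152, adjusted p = 0.0172). HS2ST1 fell by 0.13 (adjusted p = 0.000813), NDST1 by 0.08 (adjusted p = 0.0287) and EXT1 by 0.16 (adjusted p = 0.0469). EXTL3, HS6ST1 and EXT2 stood at 0.07, 0.02 and -0.03, not past the threshold.

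Without the block edgeR called 0 of the 10, beside 0.175% of all genes, while 4 had an unadjusted p under 0.05, DESeq2 called 1 (HS2ST1, adjusted p = 0.0348) and limma on log2 FPKM called 0. The unpaired fold changes were the same to within 0.01, and the standard errors were larger, such as 0.370 for SULF2. The smallest unpaired adjusted p were 0.112 for HS2ST1, 0.125 for CSGALNACT2 and 0.267 for CSGALNACT1. With the block and without replicate 1, 2 or 3 the count of called genes was 3, 2 and 5. The SULF1 call remained in all 3, with adjusted p at most 0.00650. SULF2 lost its call without replicate 2 (0.22, adjusted p = 0.241), as did HS2ST1 (adjusted p = 0.0744) and CSGALNACT1 (adjusted p = 0.267). CSGALNACT1 and CSGALNACT2 also lost theirs without replicate 1 (adjusted p = 0.0631 and 0.0521). NDST1 and EXT1 lost theirs without any 1 number, at adjusted p from 0.0710 to 0.367.

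**Figure D3:**
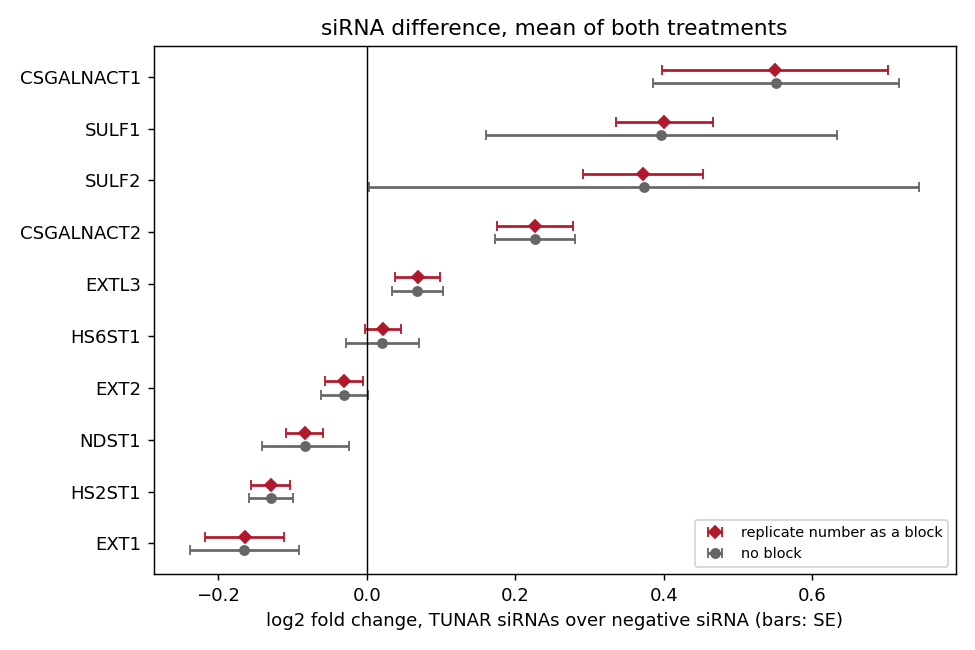
Log2 fold change of each gene with TUNAR siRNAs over negative siRNA, averaged over 1-AKP and DMSO, with its SE, from the fits with the replicate number as a block (diamonds) and without (circles). The 2 fits give the same positions, from 0.55 for CSGALNACT1 to -0.16 for EXT1, and the bars of SULF1 and SULF2 are much shorter with the block.

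For SULF2 and SULF1 the siRNA differences were smaller than the shifts between replicate 1 and the other numbers, while for CSGALNACT2 and HS2ST1 they were larger. SULF2 was higher with TUNAR siRNAs in 6 of 6 same-numbered pairs, by ratios of 1.35, 1.39 and 1.25 in 1-AKP and 1.14, 1.69 and 1.03 in DMSO. SULF1 was higher in 6 of 6 pairs too, by 1.58, 1.34 and 1.24 in 1-AKP and 1.27, 1.197 and 1.35 in DMSO. CSGALNACT1 was higher in 5 of 6, the exception being replicate 3 in DMSO at 0.956. CSGALNACT2 had 6.28, 5.42 and 5.97 FPKM with TUNAR siRNAs against 4.84, 4.70 and 5.18 FPKM with negative siRNA in 1-AKP, and 5.60, 5.77 and 5.66 FPKM against 4.83, 4.93 and 5.29 FPKM in DMSO. Its groups did not overlap in either treatment. HS2ST1 had 18.01, 18.6 and 18.4 FPKM with TUNAR siRNAs against 19.6, 20.4 and 18.8 FPKM with negative siRNA in 1-AKP, and 17.6, 18.8 and 18.7 FPKM against 20.3, 18.9 and 19.9 FPKM in DMSO, without overlap in either.

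Taken one treatment at a time, fewer genes passed. In 1-AKP the block fit called 3 higher and 0 lower, SULF1 at 0.45 (SE 0.088, adjusted p = 0.00285), SULF2 at 0.41 (SE 0.084, adjusted p = 0.00336) and CSGALNACT2 at 0.27 (SE 0.072, adjusted p = 0.0328), where 1.44% of all genes were higher and 1.33% lower. In DMSO it called SULF1 higher at 0.35 (SE 0.095, adjusted p = 0.0379) and HS2ST1 lower at -0.13 (SE 0.037, adjusted p = 0.0379), where 1.71% were higher and 1.34% lower. All 5 calls ended without replicate 2, at adjusted p from 0.0811 to 0.297, the SULF1 call in DMSO also without replicate 3 (adjusted p = 0.353), and those of CSGALNACT2 and of HS2ST1 without any 1 number. Without the block edgeR called 0 of the 10 in 1-AKP and 0 in DMSO (3 with an unadjusted p under 0.05 in each, and 0 by DESeq2 and by limma), with 0% and 0.0125% of all genes called. By libraries that did not overlap, 3 of the 10 were higher (CSGALNACT1, CSGALNACT2 and EXTL3) and 1 lower (HS2ST1) in 1-AKP, beside 4.5% and 4.47% of all genes, and 1 was higher (CSGALNACT2) and 2 lower (HS2ST1 and EXT1) in DMSO, beside 5.3% and 5.22%.

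Whether 1-AKP acted alike with and without TUNAR siRNAs was tested as the difference of the 1-AKP log2 fold changes, TUNAR siRNAs minus negative siRNA. It was 0.07 for SULF2 (SE 0.747, and 0.164 with the block) and -0.06 for CSGALNACT1 (SE 0.325), and the other 8 lay between -0.05 and 0.09. By edgeR 0 of the 10 passed, with adjusted p = 1, 0 had an unadjusted p under 0.05, and DESeq2 and limma called 0. Of all genes tested 0% passed.

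The surrounding pathway was read from 98 other glycosaminoglycan genes in 8 lists, of which 91 were listed in at least 1 library and 78 tested. With 1-AKP, edgeR called 7 higher and 3 lower with TUNAR siRNAs and 7 higher and 2 lower with negative siRNA. The counts with TUNAR siRNAs include VCAN and NCAN, whose calls are limited as given below. The 8 genes called with both siRNAs were B3GAT3, CHPF2, DSEL, HS6ST3, SLC35B2, UXS1, CD44 and GPC3. These comparisons share no library, but both rest on 1 fit with a spread estimated over all 12 libraries, so they are not independent. The shares of all genes called are those given above for the same comparisons. The median log2 fold change of the 78 was -0.02 with TUNAR siRNAs and 0.02 with negative siRNA, beside 0.00 over all genes.

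HS6ST3, a second 6-O-sulfotransferase, had 18.4, 15.8 and 13.9 FPKM with TUNAR siRNAs and 1-AKP and 17.5, 15.3 and 13.1 FPKM with negative siRNA and 1-AKP. It had 9.40, 8.64 and 7.45 FPKM with TUNAR siRNAs and DMSO and 9.36, 8.77 and 7.37 FPKM with negative siRNA and DMSO. The groups did not overlap. It rose by 0.93 (SE 0.133, edgeR adjusted p = 0.00231) and 0.87 (SE 0.133, adjusted p = 0.00357) with TUNAR siRNAs and negative siRNA. It was the 1 called gene of the 7 tested in the heparan sulfate polymer and modification list. HS6ST3 kept its call without any 1 of the 12 libraries in both comparisons, but not in every omission of a whole replicate number. The HS6ST3 to HS6ST1 ratio of FPKM was 0.443 to 0.530 with TUNAR siRNAs and 1-AKP and 0.442 to 0.519 with negative siRNA and 1-AKP, against 0.222 to 0.253 with TUNAR siRNAs and DMSO and 0.219 to 0.248 with negative siRNA and DMSO. The counts of both genes are not whole, so some reads were shared with other loci.

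In the chondroitin and dermatan branch, CHPF2, a chondroitin polymerising factor, was the 1 called of 3 tested in its list, at 0.18 and 0.14 with TUNAR siRNAs and negative siRNA (adjusted p = 0.0109 and 0.0372). DSEL, a dermatan sulfate epimerase-like gene, was the 1 of 8 tested among the modifying genes, at 0.39 and 0.25 (adjusted p = 0.00606 and 0.0489). In the linkage list B3GAT3, which adds the linkage glucuronic acid, rose by 0.36 and 0.35 (adjusted p = 0.0181 and 0.0220), the 1 of 7 tested. Of 12 tested precursor genes 2 rose: UXS1, which makes UDP-xylose, by 0.28 and 0.28 (adjusted p = 0.0294 and 0.0335), and SLC35B2, a transporter of the sulfate donor PAPS, by 0.19 and 0.18 (adjusted p = 0.0295 and 0.0320). NAGLU, a lysosomal heparan sulfate degrading enzyme, was the 1 of 16 tested degradation genes, at 0.25 with negative siRNA (adjusted p = 0.0155) and at 0.19 with TUNAR siRNAs, where it was not called (adjusted p = 0.0552). Of 3 tested hyaluronan genes edgeR called 0 with either siRNA, with 1 at an unadjusted p under 0.05 in each.

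Of 22 tested core protein genes, CD44, a hyaluronan receptor that can carry heparan or chondroitin sulfate, fell by 0.47 and 0.43 with TUNAR siRNAs and negative siRNA (adjusted p = 0.00892 and 0.0156), and GPC3, a glypican, fell by 0.25 and 0.23 (adjusted p = 0.0375 and 0.0480). VCAN, the core protein of versican, and NCAN, that of neurocan, were called with TUNAR siRNAs only, at 2.05 and -1.52. VCAN held 0 to 6 counts in DMSO libraries and 9 to 19 in 1-AKP libraries, so it passed the filter on low counts through the 1-AKP groups. NCAN held 14 to 23 counts in DMSO libraries and 3 to 12 in 1-AKP libraries. Their calls thus lean on the groups where they are high and are not read as tests. With negative siRNA they stood at 1.69 and -0.56, not past the threshold, and the difference between the siRNAs was not past it for any of the 78 genes.

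These counts rest on few libraries. With negative siRNA, the 9 calls became 5, 1 and 2 without replicate 1, 2 or 3 of negative siRNA and DMSO, 4, 3 and 2 without replicate 1, 2 or 3 of negative siRNA and 1-AKP, and 4 without replicate 2 of TUNAR siRNAs and DMSO. With TUNAR siRNAs, the 10 calls became 4 without replicate 2 and 4 without replicate 3 of TUNAR siRNAs and DMSO, and 5 and 6 without replicate 2 and 3 of TUNAR siRNAs and 1-AKP. With TUNAR siRNAs, HS6ST3, CHPF2, DSEL and CD44 kept their calls without any 1 library, and with negative siRNA HS6ST3 did. Each other call named above ended without at least 2 libraries, at adjusted p up to 0.176. No call held in every omission of a whole replicate number, with either siRNA.

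**Figure D4:**
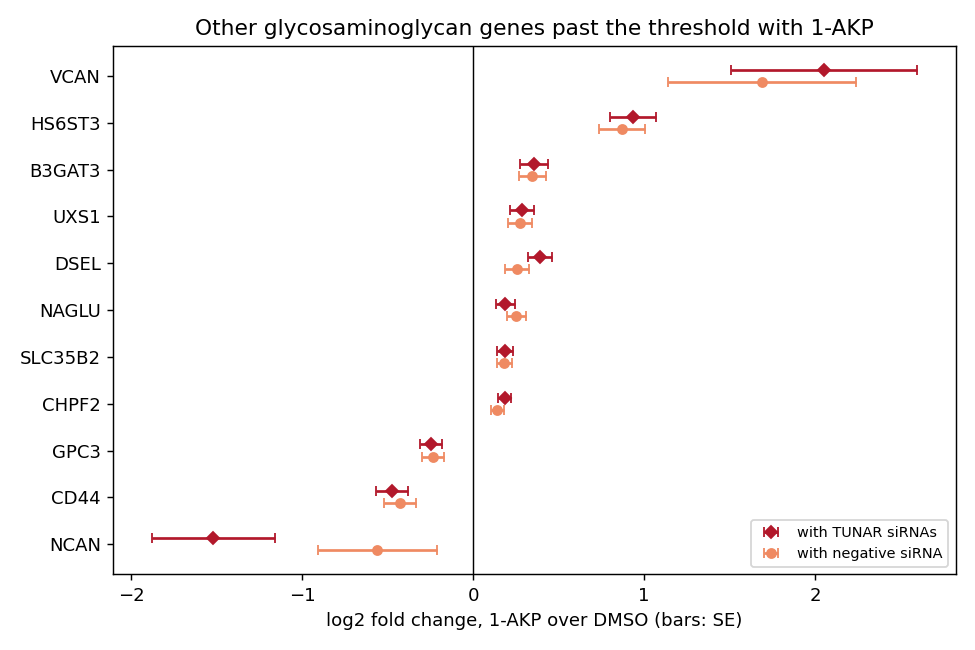
Log2 fold change with 1-AKP over DMSO, with its SE, of the 11 other glycosaminoglycan genes called with at least 1 siRNA, with TUNAR siRNAs (diamonds) and negative siRNA (circles). HS6ST3 stands at 0.93 and 0.87, and CD44 at -0.47 and -0.43.

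With TUNAR siRNAs averaged over both treatments, edgeR without the block called 1 of the 78, SDC2, the core protein of syndecan-2, a heparan sulfate carrier. SDC2 had 36.8, 34.7 and 35.1 FPKM with TUNAR siRNAs against 29.5, 30.1 and 30.03 FPKM with negative siRNA in 1-AKP, and 34.1, 30.9 and 31.2 FPKM against 28.8, 27.5 and 28.5 FPKM in DMSO, with no overlap. It rose by 0.22 (SE 0.033, adjusted p = 0.0204, and 3.28e-07 with the block). Its unpaired call ended without replicate 2 or 3 of negative siRNA and DMSO, replicate 2 of TUNAR siRNAs and DMSO or any 1 replicate of negative siRNA and 1-AKP, at adjusted p up to 0.0850. With the block 11 of the 78 were called, 6 higher and 5 lower, beside 4.4% higher and 4.18% lower of all genes.

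The calls that held without any 1 replicate number with the block were SDC2, CEMIP2, a cell-surface hyaluronan-binding protein, at 0.21 (adjusted p = 4.86e-05), COL18A1, the collagen XVIII core protein, at -0.33 (adjusted p = 5.08e-05), and UGDH, which makes the UDP-glucuronic acid all these chains need, at -0.19 (adjusted p = 0.000218). The others that rose were PTPRZ1, a receptor phosphatase that carries chondroitin sulfate, at 0.32, SPOCK1, the core of testican-1, at 0.51, XYLT1, the xylosyltransferase that starts the linkage, at 0.39, and BPNT2, a Golgi nucleotide phosphatase, at 0.09. Those that fell were CHST14, a dermatan 4-O-sulfotransferase, at -0.18, GLB1, the lysosomal β-galactosidase, at -0.08, and 1 further core protein gene. None of these 7 calls held in all 3 omissions of a number.

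AXIN2, a Wnt feedback gene read as a check on 1-AKP, had 2.14 ± 0.166 and 2.17 ± 0.200 FPKM in 1-AKP with TUNAR siRNAs and negative siRNA, and 2.46 ± 0.386 and 2.36 ± 0.258 FPKM in DMSO (SD, n = 3 each). Its log2 fold changes were -0.18 (SE 0.132, edgeR adjusted p = 0.483) and -0.10 (SE 0.133, adjusted p = 0.746). Of 7 tested Wnt feedback genes 0 were called by edgeR with either siRNA, with 0 and 1 at an unadjusted p under 0.05, and LEF1 was at 0 in every library.

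By Pearson correlation of log2 CPM over the 12 libraries, the profiles most like that of SULF2 among 13714 genes were NT5DC2 (0.982), GRIA4 (0.981), LRRC59 (0.978), AHCY (0.977) and TFAP2B (0.976). Their log2 fold changes with 1-AKP lay between 0.24 and 1.39, smaller than that of SULF2. For CSGALNACT1 they were SLC3A2 (0.969), ZNF703 (0.956), SNX22 (0.956), TRAPPC2L (0.955) and PPIB (0.944). SULF2 and CSGALNACT1 themselves correlated at 0.915, which placed CSGALNACT1 at rank 242 of these genes, and both were chosen for being higher with 1-AKP. The 12 points share treatments, siRNAs and replicate numbers, so the values describe a profile and carry no test.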

How the data were processed

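Polyadenylated RNA of 12 libraries was sequenced, with no strand marking given in the labels' protocols. The authors deposited, per the file headers, expected counts (estimated read counts, not normalised), FPKM and a gene length in bases, an "other" value. GRCh37 and hg19 are the builds, and RSEM, BWA and Bowtie the tools, in the submitters' processing notes, without versions. Genes not listed in a library were taken as 0. Libraries held 15653786 to 15986834 expected counts. From these, counts were rounded, 15990 genes passed filterByExpr (minimum count 10, minimum total 15), and 1 edgeR 4.0.16 quasi-likelihood fit (R 4.3.3) with TMM scaling and 4 group means (8 residual degrees of freedom) gave all contrasts, with Benjamini-Hochberg adjustment over all genes and a threshold of 0.05. DESeq2 1.42.0 and limma 3.58.1 on log2(FPKM + 0.1) were alternatives; the others were scaling, filter, pseudocount, passage, and each library or replicate left out. The fitting code was tested on simulated data.

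Same-numbered libraries correlated in their deviations from group means at 0.376, 0.178 and 0.217 (siRNA comparison in DMSO) and 0.416, 0.162 and 0.287 (in 1-AKP), all over the minimum of 0.1 set for pairing, so a block fit (6 residual degrees of freedom) stands beside these comparisons. It assumes that a number shifts a gene alike in every group. Between 1-AKP and DMSO the minimum was not met for replicate 2 (0.0871 with negative siRNA, 0.0634 with TUNAR siRNAs). A block within each treatment, chosen after seeing the data, called the same of the 10 genes over both treatments (edgeR adjusted p at most 0.0384). The contrast averaged over both treatments rests on all 12 libraries. The members and lists were chosen with earlier results of these data known. Named are TUNAR, the 10 genes, AXIN2, up to 4 called genes per list and contrast with the lowest p, and the 5 profiles most like SULF2 and CSGALNACT1 among genes averaging at least 1 in log2 CPM.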

Additional observations from a re-analysis of the deposited data

How the results depend on the processing

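With 1-AKP, the 9 other glycosaminoglycan genes called with negative siRNA became 29 with the replicate block (where calls over all 15990 genes went up from 1168 to 4285), 1 at passage 74 only and 4 with limma and no filter, and 0 to 13 without 1 library or replicate number. The 10 called with TUNAR siRNAs became 32 with the replicate block (all genes, 1201 and 4335), 16 with passage as a covariate and 1 at passage 74 only, and 0 to 19 in the same omissions. In these 1-AKP comparisons 1 of the 3 correlations of same-numbered libraries lay below 0.1 (0.0871 with negative siRNA, 0.0634 with TUNAR siRNAs), so the numbers are not taken as pairs there.

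With TUNAR siRNAs, the same genes gave 0 calls in DMSO and 0 in 1-AKP by edgeR without pairing (7 and 2 with an unadjusted p under 0.05), 5 and 3 with the replicate block and 5 and 4 with the block within treatment, an alternative chosen after seeing the data; DESeq2 gave 1 in 1-AKP, and omissions gave 0 to 1 there. The 1 gene called over both treatments became 11 with the replicate block, 10 within treatment, 0 with limma and no filter, 0 at passage 74 only and 0 to 3 in the omissions.

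Of the 10 genes, 2 called in DMSO with the replicate block became 0 with no block, 0 with limma and the block and 0 to 1 without a number; 3 in 1-AKP became 0, 0 and 0 to 2; and 7 over both treatments became 0, 3 and 2 to 5. The omissions of a number and limma with the block were added after seeing the data. Of 1280 recomputed fold changes of these genes, 1235 kept direction and side of the threshold (for 1-AKP, stayed within 1 SD), 27 of the siRNA ones passed newly, 6 of the 1-AKP ones moved further and 12 of the siRNA ones reversed, none of them past the threshold. In all 33 changed sign, the remainder being uncalled 1-AKP values near 0. The reversals were HS6ST1 in DMSO (-0.0793 to 0.0420 over the omissions; 0.0121 without replicate 3 of TUNAR siRNAs and DMSO) and over both treatments (-0.0038 to 0.0554), and EXT2 in DMSO (-0.0316 to 0.0257 over the omissions, and 0.0000 with RLE scaling and with DESeq2). The causes were not tested. CSGALNACT1, with 18.1 to 71.5 counts per library, is where depth limits precision most.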
